A study of Mus musculus with 2 samples.

Results

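The p53 pathway and the Cdkn2 senescence genes were followed in late-passage cultures of mouse tumour pericytes, the mural cells that wrap small vessels. The 10 genes were Trp53, the negative regulator and target Mdm2, the p53 targets Cdkn1a, Ccng1, Gdf15, Perp, Bax and Zmat3, and the locus genes Cdkn2a and Cdkn2b. They were picked by symbol, and each had 1 row among the 52636 Ensembl gene IDs of the deposited table. The study had 2 RNA-seq libraries of tumour-derived primary pericytes of the C57BL/6 strain, 1 from Cd248 null cells (genotype given as knockout type) and 1 from Cd248 heterozygote cells (hetero type). Both cultures were sorted by FACS, grown on gelatin and taken at passages 10 to 12, and Cd248 encodes endosialin, a lectin-like surface protein of pericytes and stromal fibroblasts. No treatment was given in the labels. No library of wild-type cells was analysed here, and the sources used here do not give the number or sex of the mice behind each library, the sort markers, the tumour model or the extent of the deletion.

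p53, the product of Trp53, is a transcription factor that is kept low by Mdm2 and accumulates after DNA damage and other stress. Active p53 switches on genes that stop the cell cycle, such as Cdkn1a (p21), genes of cell death, such as Bax, and Mdm2 itself, which closes a negative feedback loop. Cdkn2a encodes p16Ink4a, an inhibitor of the kinases Cdk4 and Cdk6, and p19Arf, which binds Mdm2 and frees p53, and Cdkn2b encodes the related inhibitor p15Ink4b. In mouse fibroblast-like cells, Cdkn2a is known to accumulate with passage in culture, and loss of Trp53 or of Cdkn2a is a known route by which such cultures escape senescence.

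All values are FPKM, fragment counts scaled by transcript length and sequencing depth, as the authors deposited them. With 1 library per genotype there was no spread between cultures, no test and no p-value, and each difference describes these 2 libraries. The 2 columns carried codes that were read as null and heterozygote from a final letter, and every direction depends on that reading. Cd248 itself stood at 0.0592 in the column read as null, a value of 3 reads, and at 21.0 in the other. The depth was recovered from the steps between low values as 19.8 reads per kilobase for each FPKM unit in the null culture and 24.0 in the heterozygote culture. The cultures also differed in sex-linked and lineage genes: Xist stood at 74.2 in the null and 0.0133 in the heterozygote culture, Eif2s3y was listed at 0 and stood at 14.3, and the pericyte marker Rgs5 was under an FPKM of 1 in both. Of 13 pericyte markers, 7 reached an FPKM of 1 in either library, with summed FPKM of 798 and 1414, and without Acta2 (726 and 1367) the other 12 summed to 72.4 and 47.0, led in the null culture by Pdgfrb (57.3 and 8.25). Kcnj8 and Abcc9 were at or near 0 in both. Summed FPKM was 5981 and 3472 for 11 fibroblast markers, 2.31 and 88.5 for 10 endothelial markers and 5.22 and 36.2 for 7 Schwann cell markers. The parts of sex, lineage and genotype in the differences between the cultures cannot be told apart.

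Trp53, Mdm2, Cdkn1a, Ccng1 and Bax were each above an FPKM of 100 in both cultures, and all 5 were lower in the null culture. On the log2(FPKM + 1) scale, which is also the scale of every count past 2-fold, 8 of the 10 genes lay below 0 for null against heterozygote and 2 above. At least 2-fold lower were Mdm2, Cdkn2b and Perp, and Gdf15 was at least 2-fold higher. Of 12773 genes that reached an FPKM of 1 in either library, 6.88% passed the 2-fold mark downward in the null and 6.84% upward, 13.7% in all. Among genes with a mean FPKM of at least 50, the level of Trp53, Mdm2, Cdkn1a, Ccng1, Bax and Cdkn2a, 3.16% were at least 2-fold lower and 4.37% higher, 7.52% in all. Among genes with a mean of 5 to 50, the level of Zmat3, Cdkn2b, Perp and Gdf15, the shares were 5.03% and 6.12%, 11.2% in all. The median log2 ratio was -0.59 over the 10 genes, 0.03 over all genes compared and -0.10 over those with a mean FPKM of at least 50.

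**Figure D1:**
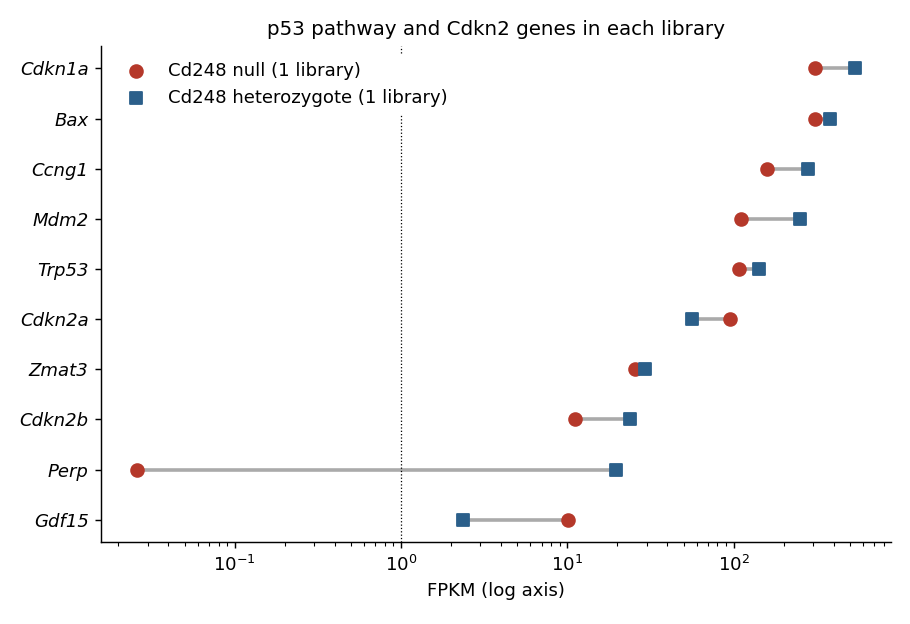
FPKM on a log axis of the 10 genes in the null culture (circles) and the heterozygote culture (squares), ordered by the heterozygote level, with 1 library each and no error bars. The null value lies left of the heterozygote value for 8 genes and right of it for Cdkn2a and Gdf15. The dotted line marks an FPKM of 1.

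The order of levels was nearly shared by the libraries. In the heterozygote culture it ran from Cdkn1a (FPKM 534) through Bax (380), Ccng1 (281), Mdm2 (249), Trp53 (142), Cdkn2a (56.4), Zmat3 (29.2), Cdkn2b (23.7) and Perp (19.8) to Gdf15 (2.37). In the null culture the first 8 genes stood in the same order, and Gdf15 and Perp changed places at the end. Cdkn1a and Bax were level with each other in the null culture, at 309 and 308. The transcript lengths the authors divided by are unknown, so the order of close neighbours is uncertain.

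Trp53 (ENSMUSG00000059552, chromosome 11) stood at an FPKM of 108 in the null culture and 142 in the heterozygote culture. This made it 1.32-fold higher in the latter, with a 95% counting interval of 1.26 to 1.37 from the reads on the shortest coding transcript, and the log2 ratio was -0.39. Such intervals cover counting error only and do not stand for the spread between cultures. The transcript was abundant in both cultures, above 90.6% of the genes compared in the null culture and 92.7% in the heterozygote culture. The table gives no sequence of the transcripts, so it does not say whether the p53 mRNA was wild-type. Genes of chromosome 11 as a whole were lower in the null culture, with a median log2 ratio of -0.27 over 1074 genes, and the 20 expressed genes nearest to Trp53 had a median of -0.24. With each chromosome's median set to 0, the ratio of Trp53 was -0.13. The part of the chromosome in the Trp53 difference was not tested. Of the 50-base stretches of its coding transcripts, 8.26% also lie in the pseudogene Trp53-ps, which was listed at 0 in both libraries.

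Mdm2 (ENSMUSG00000020184, chromosome 10), the ubiquitin ligase that targets p53 for destruction, stood at an FPKM of 111 in the null culture and 249 in the heterozygote culture. It was 2.24-fold higher in the heterozygote culture, with a counting interval of 2.18 to 2.31, and its log2 ratio of -1.16 lay below those of all but 5.49% of the genes compared. The 20 nearest expressed genes had a median of -0.02, with 1 of them at least 2-fold lower and 1 higher. Mdm4, the Mdm2 relative that restrains p53 without being a strong ligase, went the opposite way, at 68.3 in the null and 29.9 in the heterozygote culture, 2.28-fold higher in the null. Mdm4 lies on chromosome 1, whose 748 genes had a median log2 ratio of 0.41. The ratio of Mdm2 to Mdm4 inside a library, which no scaling between libraries can alter, was 1.63 in the null and 8.34 in the heterozygote culture.

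Cdkn1a (ENSMUSG00000023067, chromosome 17) encodes p21, the inhibitor of cyclin-dependent kinases that carries out the p53 arrest of the cell cycle. It had the highest level of the 10 genes in both libraries, 309 in the null and 534 in the heterozygote. The difference was 1.73-fold, with a counting interval of 1.67 to 1.78, which is within 2-fold, and the log2 ratio was -0.79. Stretches shared with other genes made up 11.1% of its coding transcripts, so part of its reads may be uncertain. Ccng1 (ENSMUSG00000020326, chromosome 11), which encodes cyclin G1, a p53 target that feeds back on Mdm2, stood at 159 and 281. It was 1.77-fold higher in the heterozygote culture, with an interval of 1.73 to 1.81. Its 20 nearest expressed genes had a median log2 ratio of -0.45, with 17 of them below 0, and the log2 ratio of Ccng1 was -0.82 as deposited and -0.55 with the chromosome median set to 0.

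Mdm2, Cdkn1a and Ccng1 were each lower in the null culture by more than Trp53 itself. The ratio of Mdm2 to Trp53 inside a library was 1.03 in the null and 1.76 in the heterozygote culture. The ratio of Cdkn1a to Trp53 was 2.86 and 3.76, and that of Ccng1 to Trp53 was 1.47 and 1.98. Bax and Zmat3 kept closer to Trp53, with ratios of 2.85 and 2.68 for Bax and 0.238 and 0.206 for Zmat3.

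**Figure D2:**
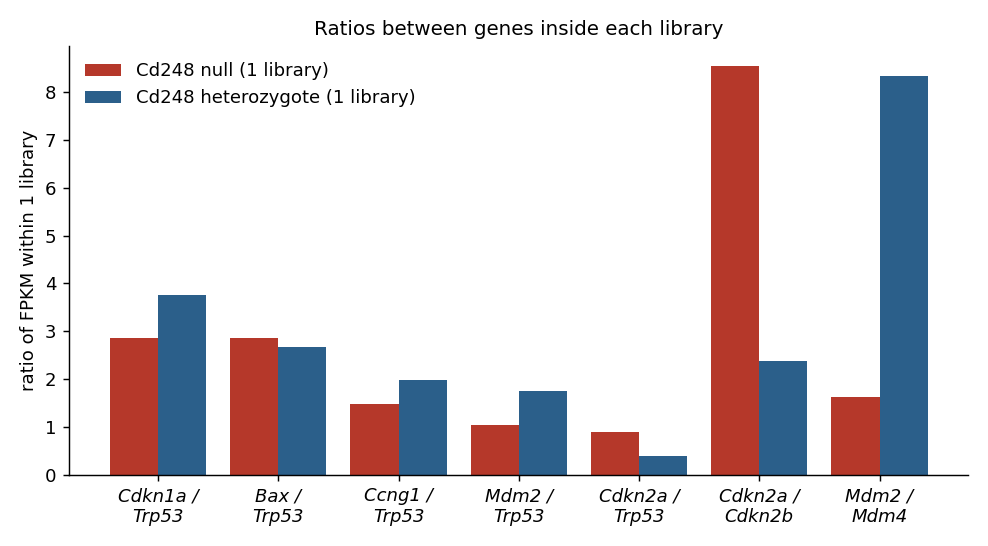
Ratio of the FPKM of 1 gene to that of another inside the null culture (left bar of each pair) and the heterozygote culture (right bar), with 1 library each and no error bars. The bars for Mdm2 to Trp53 stand at 1.03 and 1.76, those for Cdkn2a to Cdkn2b at 8.54 and 2.38, and those for Mdm2 to Mdm4 at 1.63 and 8.34.

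The upstream sequences of these genes were searched for the p53 consensus half-site, the short element that p53 binds in pairs. The search covered both strands of the 250 bases before each start in the RefSeq promoter table (GRCm38.p6), where 8 of the 10 genes were matched by symbol with 11 windows. Perp and Zmat3 were not matched. Trp53, Mdm2, Cdkn1a, Ccng1 and Bax held a half-site, in 5 of the 11 windows, against 7.13% of all 32851 windows. Most of these genes were picked as known p53 targets, so they are not an unselected set. The window of the upstream Cdkn1a start also held a pair of half-sites within 13 bases of each other, as did 21 windows of the table in all, 0.0639%. The windows of Gdf15, Cdkn2a and Cdkn2b held none. The stretches are shown with the half-sites in capitals, 5′ to 3′ on the strand of the gene. Only exact matches were taken. The stretch tgacatgttc directly after the second Cdkn1a half-site fits the consensus except at its first base and stays in lower case. The part of the half-sites in the differences between the cultures was not tested. A match is a match of letters and does not show binding.
Cdkn1a, chr17:29090859-29090958, plus strand: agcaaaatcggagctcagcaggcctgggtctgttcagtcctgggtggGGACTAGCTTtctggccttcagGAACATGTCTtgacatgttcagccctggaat
Mdm2, chr10:117710925-117710954, minus strand: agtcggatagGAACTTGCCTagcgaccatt
Ccng1, chr11:40755452-40755481, minus strand: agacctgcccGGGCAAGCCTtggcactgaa
Bax, chr7:45467080-45467109, minus strand: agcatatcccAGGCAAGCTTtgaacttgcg
Trp53, chr11:69580274-69580303, plus strand: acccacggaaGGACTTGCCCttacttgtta

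Bax and Zmat3 differed little between the cultures. Bax (ENSMUSG00000003873, chromosome 7), the pore-forming protein of mitochondrial apoptosis, stood at an FPKM of 308 in null cells and 380 in the heterozygote culture, a 1.24-fold difference. The counting interval was 1.15 to 1.32 from the reads on the shortest coding transcript (222 bases) and 1.20 to 1.27 from those on the longest (1100 bases). Of its 50-base stretches in coding transcripts, 9.89% also lie in the overlapping gene Gm45808, which was listed at 0 in both libraries. Zmat3 (ENSMUSG00000027663, chromosome 3), a zinc finger protein that binds RNA, stood at 25.7 and 29.2, with a fold of 1.14 whose counting interval was 0.959 to 1.36 from the reads on the shortest coding transcript and 1.09 to 1.19 from those on the longest, so that the length decides whether it includes 1. Among 10 expressed BCL2 family genes, the relatives of Bax, Bmf was at least 2-fold higher in the null culture (5.05 and 1.09) and 9 lay within 2-fold, with a list median of 0.33. The 10% that differed was near the 13.7% of all genes. Bok, a further relative of Bax, lay at the mark (93.7 and 46.6): its fold was 2.01 without a pseudocount and its log2 ratio 0.99 with one.

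Perp (ENSMUSG00000019851, chromosome 10) encodes a membrane protein of desmosomes in epithelia and is a p53 target in dying cells. It stood at 0.0259 in the null culture, the value of 1 read, and at 19.8 in the heterozygote culture, the value of 925 reads. The exact 95% Poisson intervals were 0.000656 to 0.144 and 18.5 to 21.1. The difference was 763-fold, with a counting interval of 137-fold to 30175-fold. Perp was the member of the 10 with the lowest log2 ratio, -4.34, and the libraries did not come near each other.

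Epithelial and mesothelial genes were lower in the same culture as Perp. Of 13 such markers, 9 were compared, 8 were at least 2-fold lower and 1 was higher in the null culture. Over all genes, 6.88% were lower and 6.84% higher. Krt7, Krt14, Krt18, Upk3b, Upk1b and Wt1 reached an FPKM of 1 in the heterozygote culture alone, and Muc1 in the null culture alone. The filter thus fixed the direction of these genes, and the count is no independent support. The summed FPKM of the 13 was 20.3 in the null and 1166 in the heterozygote culture. The largest heterozygote values were those of the mesothelial markers Upk3b (0.430 and 330) and Msln (2.10 and 234). The keratin genes Krt19 (14.4 and 217) and Krt18 (0.0361 and 196) came next, while Krt5 and Krt8 were under an FPKM of 1 in both. Epcam was listed at 0 in both and Cdh1 stood at 0.0180 and 0.0594. The cell adhesion genes that are expressed with Perp in epithelia went the same way. Of 10 on that list, 5 were compared and 4 were at least 2-fold lower, against 6.88% of all genes. Dsg2, Dsp and Pkp3 reached an FPKM of 1 in the heterozygote culture alone, so the filter fixed their direction. Among the 4 lower genes were the desmosomal cadherin gene Dsg2 (listed at 0, and 7.27), the plakophilin gene Pkp2 (1.75 and 13.9) and the plakoglobin gene Jup (16.8 and 87.0). Trp63, the p53 relative that drives Perp in stratified epithelium, was near 0 in both libraries, at 0.0283 and 0.0117. In bulk RNA, fewer cells of a type and less RNA per cell cannot be told apart, and the part of these markers in the Perp difference was not tested.

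Gdf15 (ENSMUSG00000038508, chromosome 8), a secreted stress cytokine of the TGF-beta superfamily, was the 1 p53 target of the 10 that was higher in the null culture. It stood at 10.1 there and at 2.37 in the heterozygote culture, a 4.28-fold difference with a counting interval of 3.32 to 5.59. Gdf15 is also a target of the stress factors ATF4 and CHOP. Of 8 genes of that response, 2 passed the 2-fold mark upward in the null culture, Ddit3, which encodes CHOP (187 and 53.7), and the pseudokinase gene Trib3 (28.1 and 8.25), a share of 25% against 6.84% of all genes. The other 6 lay within 2-fold, with Chac1 the 1 gene below 0 (10.8 and 15.5). Atf4 stood at 231 and 156. The part of that response in the Gdf15 difference was not tested.

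A wider list of 34 known p53 targets was set beside the 10 genes. Of these, 33 were compared, 1 was at least 2-fold higher, 5 were at least 2-fold lower and 27 lay within 2-fold. In both directions together 18.2% differed, near the 13.7% of all genes. By direction the list was uneven, while all genes split into 6.84% higher and 6.88% lower. As low were 3.16% of genes with a mean FPKM of at least 50 and 5.03% of those at 5 to 50. No test of these shares was made. The list median was -0.23, with 23 genes below 0 and 10 above, or 21 and 13 of 34 once both columns were brought to 1 sum. The lower genes were led by the death receptor gene Tnfrsf10b (8.56 in the null and 31.5 in the heterozygote culture), the BH3-only gene Pmaip1, or Noxa (3.82 and 13.3), and the heparan sulphatase gene Sulf2 (56.0 and 140). The higher gene was the metalloreductase gene Steap3 (27.0 and 6.88), which lies on chromosome 1. The p53 targets Phlda3, an inhibitor of Akt signalling (383 and 429), and Bbc3, which encodes Puma (54.4 and 63.2), were within 2-fold.

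Genes that control p53 showed no common direction. Of 21 compared, 2 were at least 2-fold higher, 1 was lower and 18 were within 2-fold, with a median of 0.08, and the 14.3% that differed was near the 13.7% of all genes. The higher ones were Mdm4 and Hipk2, a kinase that phosphorylates p53 (15.5 and 5.99), and the lower one was Ppp1r13b, which encodes the p53-binding protein ASPP1 (1.72 and 5.56). The damage kinase genes Atm (11.3 and 5.96) and Atr (7.20 and 4.62) and the checkpoint kinase genes Chek1 (10.3 and 12.7) and Chek2 (24.2 and 20.9) were within 2-fold. The p53 relatives Trp63 and Trp73 were under an FPKM of 1 in both libraries.

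**Figure D3:**
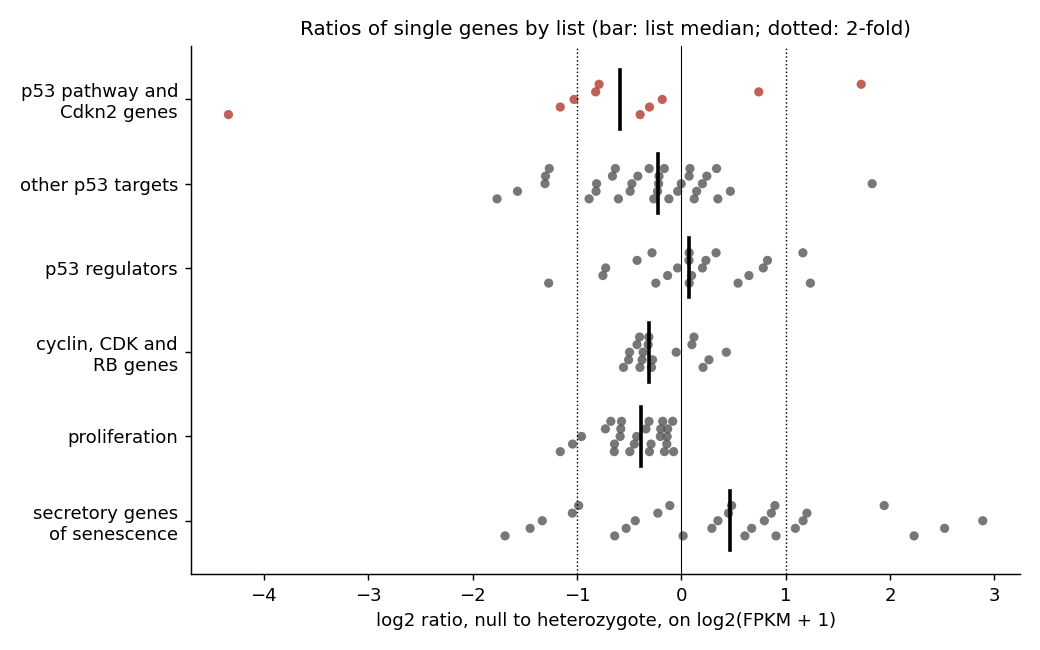
Log2 ratio of null to heterozygote on the log2(FPKM + 1) scale, 1 point per gene that reached an FPKM of 1 in either library, for the 10 genes (first line) and 5 wider lists, with a bar at each list's median and dotted lines at 2-fold. The medians are -0.59 for the 10 genes, -0.23 for other p53 targets, 0.08 for p53 regulators, -0.31 for cyclin, CDK and RB genes, -0.38 for proliferation genes and 0.47 for secretory genes. Vertical offsets within a line are for display.

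The Cdkn2 genes differed in opposite directions. Cdkn2a (ENSMUSG00000044303, chromosome 4) stood at an FPKM of 95.1 in the null culture and 56.4 in the heterozygote culture, and was 1.69-fold higher in the null with a counting interval of 1.56 to 1.82. Cdkn2b (ENSMUSG00000073802, chromosome 4), its neighbour, stood at 11.1 and 23.7, with exact Poisson intervals of 9.91 to 12.4 and 22.1 to 25.4 from 306 and 791 reads, and was 2.13-fold higher in the heterozygote culture. Cdkn2a was present in both cultures at a level above 89.3% of genes in the null culture and 81.0% in the heterozygote culture. The ratio of Cdkn2a to Cdkn2b inside a library was 8.54 in the null and 2.38 in the heterozygote culture. No stretch of 50 bases was shared between their coding transcripts and any other gene in the annotation. The 2-fold mark of Cdkn2b was a close call: its log2 ratio was -1.03, and -0.83 with a pseudocount of 5, -0.94 with columns scaled to an equal sum and -0.89 with each chromosome's median at 0.

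The gene-level value of Cdkn2a joins 2 transcripts that begin at separate first exons, the upstream one for p19Arf and the downstream one for p16Ink4a, which share the rest of their exons in different reading frames. The deposited table does not separate them. Their starts are unlike in sequence, which is why the bases before each are shown, with each CG dinucleotide in capitals. The 250 bases before the p19Arf start held 40 such dinucleotides and 78.4% G and C, those before the p16Ink4a start 7 and 60%, and those before Cdkn2b 12 and 53.6%, against medians of 6 and 52.4% over all windows. No p53 half-site was found in these windows.
Cdkn2a p19Arf start, chr4:89294620-89294689, minus strand: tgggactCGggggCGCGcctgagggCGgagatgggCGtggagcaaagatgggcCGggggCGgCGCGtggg
Cdkn2a p16Ink4a start, chr4:89282193-89282262, minus strand: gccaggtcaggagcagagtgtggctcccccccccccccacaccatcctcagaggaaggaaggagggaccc
Cdkn2b start, chr4:89311033-89311102, minus strand: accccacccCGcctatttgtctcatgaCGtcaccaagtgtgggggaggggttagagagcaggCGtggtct

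The 20 expressed genes nearest to Cdkn2a had a median log2 ratio of -0.04, with 5 at least 2-fold lower and 1 higher, and those nearest to Cdkn2b a median of 0.04. Among 6 listed genes near the locus, 4 were compared. Mtap, the methylthioadenosine phosphorylase gene near Cdkn2a, stood at an FPKM of 25.8 in null cells and 70.3 in the heterozygote culture, and Hacd4, which encodes an enzyme of very long chain fatty acid synthesis, stood at 1.47 and 9.95. Both were at least 2-fold lower in the null culture, as were 6.88% of all genes. Klhl9 (13.8 and 14.3) and Focad (6.44 and 4.93) lay within 2-fold, and Dmrta1 and Elavl2 were under an FPKM of 1. Among these listed neighbours and the pair itself, Cdkn2a and Focad were the expressed genes with log2 ratios above 0.

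**Figure D4:**
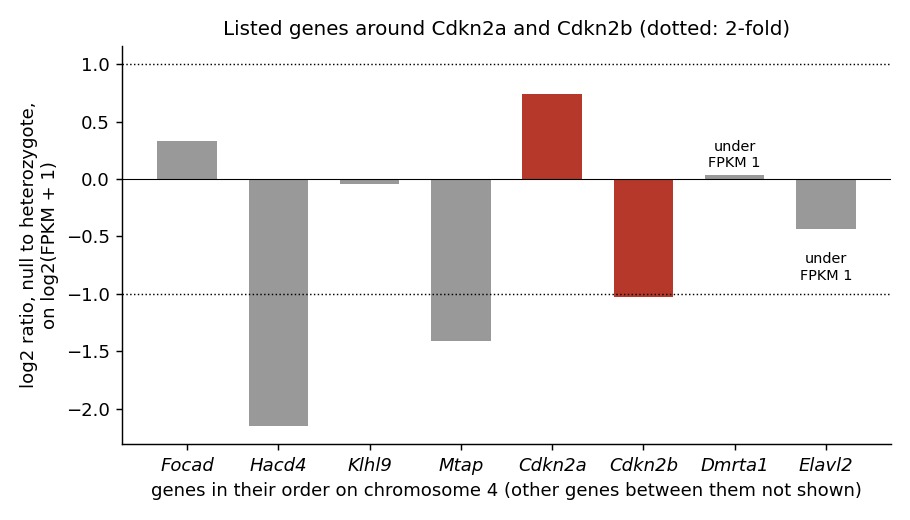
Log2 ratio of null to heterozygote on the log2(FPKM + 1) scale for Cdkn2a, Cdkn2b and 6 listed genes near them, in their order on chromosome 4, with dotted lines at 2-fold and 1 library per genotype. Cdkn2a stands at 0.74 between Mtap at -1.41 and Cdkn2b at -1.03, and Dmrta1 and Elavl2 are under an FPKM of 1 in both libraries.

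Of 20 genes known to regulate the Cdkn2a and Cdkn2b locus, 1 was at least 2-fold higher in the null culture, 2 were lower and 17 were within 2-fold, with a median of -0.07. The 15% that differed was near the 13.7% of all genes. Tbx2, a T-box repressor of p19Arf, stood at 0.432 in the null and 17.2 in the heterozygote culture. Id1, which opposes the activation of p16Ink4a by Ets factors, stood at 27.0 and 137. Cbx7, a Polycomb protein that represses the locus, went the other way, at 3.82 and 0.534. The Polycomb genes Bmi1 (68.7 and 46.3) and Ezh2 (47.4 and 58.9) were within 2-fold.

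Genes of the cyclin, CDK and RB machinery stayed within 2-fold between the cultures. None of 18 expressed cyclin, CDK, RB and further CDK inhibitor genes differed by 2-fold, and their median was -0.31. Over all genes 13.7% differed, and 7.52% of those with a mean FPKM of at least 50. No test of that share was made. Cdk4, the kinase that p16Ink4a binds, stood at 474 in the null and 588 in the heterozygote culture, and the cyclin D1 gene Ccnd1 at 195 and 258. The ratio of Cdkn2a to Cdk4 inside a library was 0.201 in the null and 0.0960 in the heterozygote culture. Cdkn2c and Cdkn2d, which encode the further Ink4 inhibitors p18Ink4c and p19Ink4d, stood at 32.3 and 47.9 and at 42.9 and 57.8.

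Proliferation genes were expressed in both cultures. All 26 genes of that list had log2 ratios below 0, or 24 of them with columns scaled to an equal sum, and the median was -0.38. Below 0 lay 59.0% of genes with a mean FPKM of at least 50 and 48.1% of all genes compared. Of the 26, 2 were at least 2-fold lower in the null culture, the thymidine kinase gene Tk1 (92.0 and 207) and Birc5, which encodes survivin (37.3 and 77.8), both on chromosome 11. That share of 7.69% was near the 6.88% of all genes, and 3.16% of genes with a mean FPKM of at least 50 were as low. The marker of cycling cells Mki67 stood at 44.3 and 49.7, and the replication clamp gene Pcna, itself a p53 target, at 286 and 362. Cdkn1a and most proliferation genes were thus lower in the same library.

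Of the secretory genes linked to senescence, some were higher and some lower in the null culture, and most were within 2-fold. Of 35 listed, 28 were compared, 7 were at least 2-fold higher, 4 lower and 17 within 2-fold, so 39.3% differed against 13.7% of all genes. No test of that share was made. The median was 0.47. The chemokine gene Ccl7 (103 in the null and 13.1 in the heterozygote culture), Igfbp4 (61.9 and 9.94) and the neutrophil chemokine gene Cxcl1 (3.97 and 0.0591) were higher, and the chemokine gene Ccl20 (listed at 0, and 2.22), the growth factor gene Ereg (3.51 and 11.3) and the adhesion gene Icam1 (2.45 and 7.69) were lower. Il1a, an upstream signal of this secretion, stood at 0.0256 and was listed at 0, and Il1b was listed at 0 in both. Many of these genes are also products of fibroblasts and myeloid cells; of 9 myeloid markers, 4 were compared and 2 were higher in the null culture, with summed FPKM of 24.2 and 16.4 and Itgam and Adgre1 listed at 0 in both. Their part in the secretory values was not tested.

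Of 11 nuclear and lysosomal genes used as signs of senescence, 1 differed by 2-fold, the chromatin protein gene Hmga2 (74.8 in the null and 166 in the heterozygote culture). That share was 9.09%, against 13.7% of all genes. The lamin gene Lmnb1, which is lost in senescent cells, stood at 82.9 and 107. Glb1, the source of senescence-associated beta-galactosidase, stood at 30.1 and 29.4.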

How the data were processed

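RNA of 2 libraries was prepared with Trizol and an Illumina TruSeq kit, per the labels' protocols, and per the submitters' processing notes Bowtie2 (2.2.3) and mm8 were used; the sources used here do not give the counting tool or annotation. Values are FPKM as the authors deposited them. IDs were matched to GENCODE M21 (52403 of 52636), and the row with the highest mean stood for a symbol. The log2 ratio of null to heterozygote used a pseudocount of 1, which understates differences of low genes, and the 12773 genes that reached an FPKM of 1 in either library were compared. Folds carry no pseudocount. Reads behind a value came from genes with 1 transcript, of whose values under 10 reads 98.6% (null) and 98.5% (heterozygote) were whole within 0.02 reads, giving totals of 19786203 and 23982269 reads. Fold intervals are exact binomial (Clopper-Pearson). The steps were tested on simulated data. Members and lists were chosen with earlier results of these data known. Named genes were all members and up to 3 per direction and list past 2-fold; further genes were named for their role after their values were seen. The genes nearest in level to Cdkn1a are not reported here. Python 3.11.15, pandas 2.3.3 and scipy 1.17.1 were used.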

Additional observations from a re-analysis of the deposited data

How the results depend on the processing

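Pseudocounts of 0.1 and 5, a minimum FPKM of 5 or none, scaling to an equal sum or upper quartile and summing of rows were tried, and centring by the median of all genes or of each chromosome was added after seeing the data. Every one of the 70 alternative values of the 10 genes kept its sign, and Mdm2, Gdf15 and Perp stayed past 2-fold in each. A change of pseudocount cannot turn a sign, and summing of rows leaves genes with 1 row unchanged. Only the scaling and centring settings could therefore have turned one. The median of the 10 genes was -0.45 with each chromosome centred. The secretory list had 11 genes past 2-fold, 16 with a pseudocount of 0.1 and 5 with one of 5, which gave a median of 0.32, and medians of 0.35 with no filter and 0.23 with each chromosome centred. The proliferation list had 1 gene past 2-fold with a pseudocount of 5, with an equal sum and with each chromosome centred. Over all genes, the count past 2-fold was 874 higher and 879 lower, and 400 and 369 with a pseudocount of 5, 1306 and 1090 with one of 0.1. The cause was not tested. No paired analysis was possible because each genotype had 1 library. Depth limits Perp and Cd248 in the null library, at 1 and 3 reads.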

Other observations

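The protein-coding genes nearest to Cdkn2a in level on the log2(FPKM + 1) scale in both libraries were Osr1 (FPKM 92.8 in the null and 56.0 in the heterozygote culture, distance 0.0372), Fosl2 (91.9 and 57.5) and Aldh18a1 (92.9 and 58.3), among 11628 genes. This likeness rests on 2 libraries and describes their levels.

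The ratio of Bax to the survival gene Bcl2l1 inside a library was 2.88 in the null and 3.28 in the heterozygote culture, and that of Bax to the pore-forming relative Bak1 was 5.44 and 4.91. The ratio of Cdkn1a to Cdkn2a was 3.25 and 9.47.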
